A study of Homo sapiens with 60 samples.

Results

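HT29 cells, an established human colorectal adenocarcinoma line, were exposed for 24 h to water extracts of 2 herbal medicines, Atractylodis Rhizoma and Poria Cocos, and their mRNA was sequenced. The data described here are the 18 libraries of these 2 extracts, of 60 in the series. They were taken by the extract named in the sample title, and all 18 carry sample codes that begin with 2. Each extract was given at 20, 100 and 500 µg/mL with 3 replicates per dose, so 9 Atractylodis libraries were set against 9 Poria libraries at equal doses. The 3 vehicle libraries, also taken at 24 h, carry the label 0.1% DMSO, while the series text gives 2%, and are quoted only as side values. Their sample codes begin with 1, a number that the labels leave unexplained, and a difference between an extract and the vehicle cannot be told apart from a difference between these sets of samples. The comparison of Atractylodis with Poria stays inside one set. Whether replicates came from separate cultures is not given, so p-values measure only the spread between these libraries, which may be technical. Nor is it given whether both extracts were handled together, so extract and handling cannot be told apart.

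The cells carried the transcripts of their labelled type. Levels are given as CPM, a gene's count as a share of the scaled library total, and are not corrected for gene length. Summed over 12 epithelial and HT29 marker genes, the level was 12300 to 13700 CPM with Atractylodis, 12400 to 13400 CPM with Poria and 12500 to 13000 CPM with the vehicle. The keratins KRT8 and KRT18 averaged 6590 and 3910 CPM and the adhesion genes EPCAM and CDH1 564 and 470 CPM. KRT19, LGALS4, KRT20 and VIL1 averaged 484, 468, 311 and 171 CPM. CEACAM5, CDX2 and GPA33 were lower, at 8.45, 4.84 and 3.45 CPM. Only the intestinal transcription factor CDX1, at 0.922 CPM, was under 1 CPM. Of the 6 hepatocyte markers 5 were under 1 CPM, and SERPINA1 averaged 411 CPM. Of the leukocyte markers, PTPRC averaged 0.0261 CPM, CD3E 0.0044 CPM and MS4A1 0 CPM, 4 of the 7 were under 1 CPM, CD68 and CD14 averaged 6.96 and 3.52 CPM, and the summed level of that list was set by LYZ, a lysozyme gene that these cells also carried at 1430 CPM. Libraries held 21667031 to 29853567 expected counts with Atractylodis, 23102856 to 29163031 with Poria and 23349216 to 24770997 with the vehicle. Mitochondrially encoded genes took 6.97 to 9.47%, 7.33 to 9.17% and 8.61 to 11.4% of the counts.

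Intestinal epithelial cells hold several inducible programmes that bear on these libraries. NF-kB, a transcription factor released when its inhibitor is degraded, drives chemokines that call in neutrophils, and it acts with other factors on secreted defence proteins such as lipocalin and elafin. Type I and III interferons act through a complex that contains IRF9, which binds the interferon-stimulated response element and raises antiviral genes. NRF2 is held in the cytoplasm by KEAP1 until electrophiles modify KEAP1. It then binds the antioxidant response element of genes for glutathione synthesis, quinone and aldehyde reduction and NADPH supply. The aryl hydrocarbon receptor is a ligand-activated factor that controls CYP1A1 and its relatives.

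The upstream regions of chosen genes of the chemokine, interferon and NRF2 lists are printed first, because they hold the best known elements of these programmes. They are examples and not a sample of the called genes, and CXCL8 among them did not pass over all doses. Each printed region is the 250 bases before the RefSeq start in GRCh38.p14, read 5′ to 3′ on the gene's strand, with the match in capitals. The chemokine genes CXCL1 (chr4:73869143-73869392, plus strand), CXCL5 (chr4:73998678-73998927, minus strand) and CXCL8 (chr4:73740319-73740568, plus strand) each held the NF-kB motif GGAATTTCC, ahead of the start by 78, 90 and 91 bases.
CXCL1: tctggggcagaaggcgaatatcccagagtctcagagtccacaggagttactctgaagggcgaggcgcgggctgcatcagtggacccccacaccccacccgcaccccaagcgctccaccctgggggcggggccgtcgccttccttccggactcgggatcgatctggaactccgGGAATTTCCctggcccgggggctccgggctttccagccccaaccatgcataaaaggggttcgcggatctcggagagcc
CXCL5: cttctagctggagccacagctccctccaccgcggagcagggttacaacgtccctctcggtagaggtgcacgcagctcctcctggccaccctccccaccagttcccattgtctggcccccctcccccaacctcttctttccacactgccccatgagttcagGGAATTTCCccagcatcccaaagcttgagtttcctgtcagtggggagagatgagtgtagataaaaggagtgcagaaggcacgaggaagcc
CXCL8: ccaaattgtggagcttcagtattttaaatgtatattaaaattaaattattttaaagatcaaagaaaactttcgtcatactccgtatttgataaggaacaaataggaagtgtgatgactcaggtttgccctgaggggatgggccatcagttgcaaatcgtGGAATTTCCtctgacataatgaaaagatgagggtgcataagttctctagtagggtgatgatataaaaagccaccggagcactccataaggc
The interferon-stimulated genes IFIT1 (chr10:89392373-89392622, plus strand) and IFI27 (chr14:94110486-94110735, plus strand) each held 2 matches to the interferon element core, which is GAAA, any 2 bases and GAAA, read on either strand.
IFIT1: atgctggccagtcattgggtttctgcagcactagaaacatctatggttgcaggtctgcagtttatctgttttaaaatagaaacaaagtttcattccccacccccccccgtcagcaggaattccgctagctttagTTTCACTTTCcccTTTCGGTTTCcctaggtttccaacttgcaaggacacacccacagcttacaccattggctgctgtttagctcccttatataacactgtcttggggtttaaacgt
IFI27: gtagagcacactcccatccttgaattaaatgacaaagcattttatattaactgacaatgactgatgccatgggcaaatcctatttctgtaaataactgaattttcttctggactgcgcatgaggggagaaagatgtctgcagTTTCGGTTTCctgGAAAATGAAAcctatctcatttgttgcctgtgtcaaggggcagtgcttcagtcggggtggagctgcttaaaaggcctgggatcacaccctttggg
GCLM (chr1:93909431-93909680, minus strand), a glutathione synthesis gene, and ME1 (chr6:83431052-83431301, minus strand), malic enzyme, each held 1 match to the antioxidant element core TGACNNNGC.
GCLM: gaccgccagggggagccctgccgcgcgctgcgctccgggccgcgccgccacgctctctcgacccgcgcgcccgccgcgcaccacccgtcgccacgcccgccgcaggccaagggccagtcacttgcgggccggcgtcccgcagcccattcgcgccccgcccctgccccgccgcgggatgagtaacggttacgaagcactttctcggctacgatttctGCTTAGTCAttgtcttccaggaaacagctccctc
ME1: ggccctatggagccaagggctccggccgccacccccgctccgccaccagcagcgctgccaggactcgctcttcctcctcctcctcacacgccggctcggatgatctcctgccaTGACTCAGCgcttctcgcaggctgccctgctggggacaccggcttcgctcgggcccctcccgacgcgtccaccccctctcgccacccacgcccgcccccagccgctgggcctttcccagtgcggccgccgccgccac
Each motif was searched on both strands over RefSeq windows that run from 250 bases before to 50 after the start. GGAATTTCC was found in 0.461% of 35116 such windows and in 12 of the 21 windows available for the 24 tested genes of the NF-kB and chemokine list. The interferon core was found in 3.57% of the windows and in 20 of the 31 available for the 38 tested interferon-stimulated genes. TGACNNNGC was found in 13.3% of the windows. Only 22 of the 31 tested NRF2 genes had an entry, of which 7 held it, and no share is given for that list. Of the 9 tested mucosal defence genes only 4 had an entry, and 0 of these held GGAATTTCC. A match describes the letters and does not show that a factor was bound.

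With dose as a covariate, 192 of 15719 genes tested differed between Atractylodis and Poria at an adjusted p below 0.05 in edgeR's quasi-likelihood test, 92 higher and 100 lower with Atractylodis. This is 1.22% of the genes tested, 0.585% higher and 0.636% lower. The higher genes held 21 interferon-stimulated genes and 11 genes of the mucosal defence and NF-kB lists. The lower genes held 26 genes of the NRF2 and aryl hydrocarbon receptor lists. Only 16 of the 192 differed by at least 2-fold, and all 16 were higher with Atractylodis. Apart from PI3 and CXCL1, each of the 16 averaged 2.93 CPM or less over the 18 libraries. C3, DUOX2, SAA1 and CXCL5 among them passed the filter on low counts mainly through the Atractylodis libraries. When the libraries were scaled by their totals alone, 100 genes were called higher and 79 lower over all doses. At single doses the counts were 18 genes at 20 µg/mL, which is 0.115% of those tested, 10 genes at 100 µg/mL, or 0.0636%, and 259 genes at 500 µg/mL, or 1.65%. At 500 µg/mL 101 genes were higher and 158 lower with Atractylodis, of which 9 and 11 differed by at least 2-fold. The split at that dose by library totals was 124 higher and 106 lower. The difference between the extracts itself changed between 20 and 500 µg/mL for 48 genes, or 0.305%, by the interaction term, 20 upward and 28 downward, and the split by library totals was 24 and 22.

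Replicate 1 of Poria stood apart from the other Poria libraries at every dose in chemokine genes. CXCL1 was at 11.8, 23.0 and 49.1 CPM in the Poria replicate 1 libraries at 20, 100 and 500 µg/mL, and at 2.28 to 5.39 CPM in the other 6 Poria libraries. The total counts of those 3 libraries, 25151925, 23102856 and 29163031, and their mitochondrial shares of 9.17, 8.41 and 7.33%, lay within or next to the values of the other libraries. Replicate 1 of both extracts also lay above replicates 2 and 3 of its group on the second principal component, at 2, 9.4 and 16.3 with Atractylodis and 3.8, 11.4 and 21.9 with Poria at 20, 100 and 500 µg/mL, and replicates 2 and 3 were the closest pair in all 6 groups. What set these libraries apart was not tested. Results are therefore also given without Poria replicate 1. The 2 extracts then differed in 609 of 15910 genes, or 3.83%, over all doses, in 38 (0.239%), 26 (0.163%) and 220 (1.38%) genes at 20, 100 and 500 µg/mL, and by the interaction in 27 genes (0.17%). Of the 92 genes called higher with all 18 libraries, 81 were still called higher, and of the 100 lower genes, 81 were still called lower. Without replicate 1 of both extracts the count over all doses was 831 genes, or 5.26%, and 2.9% were higher.

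The defence genes LCN2, PI3 and PIGR were higher with Atractylodis at every dose. Of the 18 genes in the mucosal defence and acute phase list, 9 passed the filter on low counts, and 7 of these were higher with Atractylodis over all doses in edgeR and none was lower, against 5 called in DESeq2. At 20, 100 and 500 µg/mL 6, 4 and 4 of the 9 were higher in edgeR, where 0.0827, 0.0382 and 0.643% of all genes were. The low expressed SAA1, DUOX2 and C3 passed that filter mainly through the Atractylodis libraries, so the 9 are not the whole list, and the counts are a description that is not read against the share of all genes. The 7 were PI3, LCN2, PIGR, C3, CFB, DUOX2 and SAA1. All 7 stayed called when any 1 of the 18 libraries was left out and when Poria replicate 1 was left out. At 500 µg/mL Poria replicate 1 was the highest Poria library for PI3, PIGR, C3, CFB and DUOX2. Leaving it out widens the difference in these genes, so their calls without it are a description and support nothing.

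PI3, which encodes elafin, an inhibitor of neutrophil elastase, was at 30.7, 25.0 and 28.6 CPM in the Atractylodis libraries at 20 µg/mL, 30.6, 29.7 and 30.9 CPM at 100 µg/mL and 30.5, 30.1 and 29 CPM at 500 µg/mL. In the Poria libraries it was at 7.28, 5.48 and 6.12 CPM, 8.42, 5.86 and 6.16 CPM, and 23.1, 11.8 and 9.05 CPM at the same doses. The vehicle libraries had 6.40, 6.29 and 6.59 CPM. Atractylodis libraries were level over the doses and all lay above every Poria library, and Poria libraries lay near the vehicle until the highest dose, where all 3 were higher. The log2 fold change, Atractylodis over Poria, was 1.72 ± 0.17 (SE) over all doses with an adjusted p of 3.86e-06 in edgeR, and 2.16 ± 0.23, 2.17 ± 0.22 and 1.01 ± 0.20 at 20, 100 and 500 µg/mL. The call at 500 µg/mL was lost without Poria replicate 2 of that dose, where the log2 fold change was 0.88 and the adjusted p 0.0634. The interaction did not pass, with an adjusted p of 0.168 in edgeR. In the fit of all 60 libraries PI3 stood 2.13, 2.24 and 2.22 log2 units above the vehicle with Atractylodis at 20, 100 and 500 µg/mL, all past the test, and -0.03, 0.08 and 1.2 units with Poria, of which the last passed. In these bulk libraries, more cells carrying a transcript and more of it per cell cannot be told apart.

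LCN2, lipocalin 2, which withholds iron from bacteria by binding their siderophores, was at 188, 175 and 185 CPM with Atractylodis at 20 µg/mL, 172, 174 and 175 CPM at 100 µg/mL and 154, 171 and 169 CPM at 500 µg/mL. With Poria it was at 114, 102 and 118 CPM, 115, 109 and 101 CPM, and 112, 115 and 95.8 CPM. The vehicle had 107, 121 and 123 CPM. The extracts did not overlap at any dose, and the Poria libraries overlapped the vehicle. The log2 fold change was 0.67 ± 0.04 over all doses with an adjusted p of 4.30e-10 in edgeR, which was the smallest of all genes tested, and it was 0.71, 0.68 and 0.61 at the 3 doses, with a call at each.

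PIGR, the polymeric immunoglobulin receptor that carries IgA across the epithelium, ran from 4.27 to 6.21 CPM with a median of 5.08 CPM in the 9 Atractylodis libraries, and from 0.296 to 1.37 CPM with a median of 0.728 CPM in the 9 Poria libraries. The vehicle had 0.683, 0.904 and 0.840 CPM, inside the Poria range. The log2 fold change was 2.7 ± 0.16 with an adjusted p of 6.49e-10 in edgeR, and it passed at every dose.

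The complement genes followed. C3, the central complement component, ran from 1.87 to 2.99 CPM with Atractylodis and from 0.0742 to 1.75 CPM with Poria, where the highest value was replicate 1 at 500 µg/mL and the median was 0.121 CPM. Its log2 fold change was 2.64 ± 0.36 over all doses with an adjusted p of 0.000243 in edgeR. Without Poria replicate 1, the highest Poria library for C3 at each dose, it was 3.81 ± 0.24, which is a description only. CFB, factor B of the alternative complement pathway, ran from 3.69 to 4.64 CPM with Atractylodis and from 0.971 to 3.65 CPM with Poria, for a log2 fold change of 1.22 ± 0.15 and an adjusted p of 0.00013.

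DUOX2, an epithelial oxidase that makes hydrogen peroxide, was low in both, at 0.276 to 0.574 CPM with Atractylodis and 0.0431 to 0.351 CPM with Poria, and its log2 fold change was 1.51 ± 0.28. SAA1, the acute phase serum amyloid A, had no counts in any Poria library at 20 µg/mL and averaged 0.462 CPM with Atractylodis there, at least 3.88-fold higher than a floor of 3 counts per library. SAA1 shares sequence with SAA2, so its counts are uncertain. The 2 tested members that did not pass were SLPI, another elastase inhibitor, with a log2 fold change of 0.26 ± 0.09, and the defensin DEFB1, with 0.00 ± 0.17. CEACAM7, an adhesion gene of the brush border list, also stood 1.42 ± 0.21 log2 units higher with Atractylodis over all doses, at 1.16 to 2.05 CPM against 0.334 to 1.37 CPM with Poria.

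**Figure D1:**
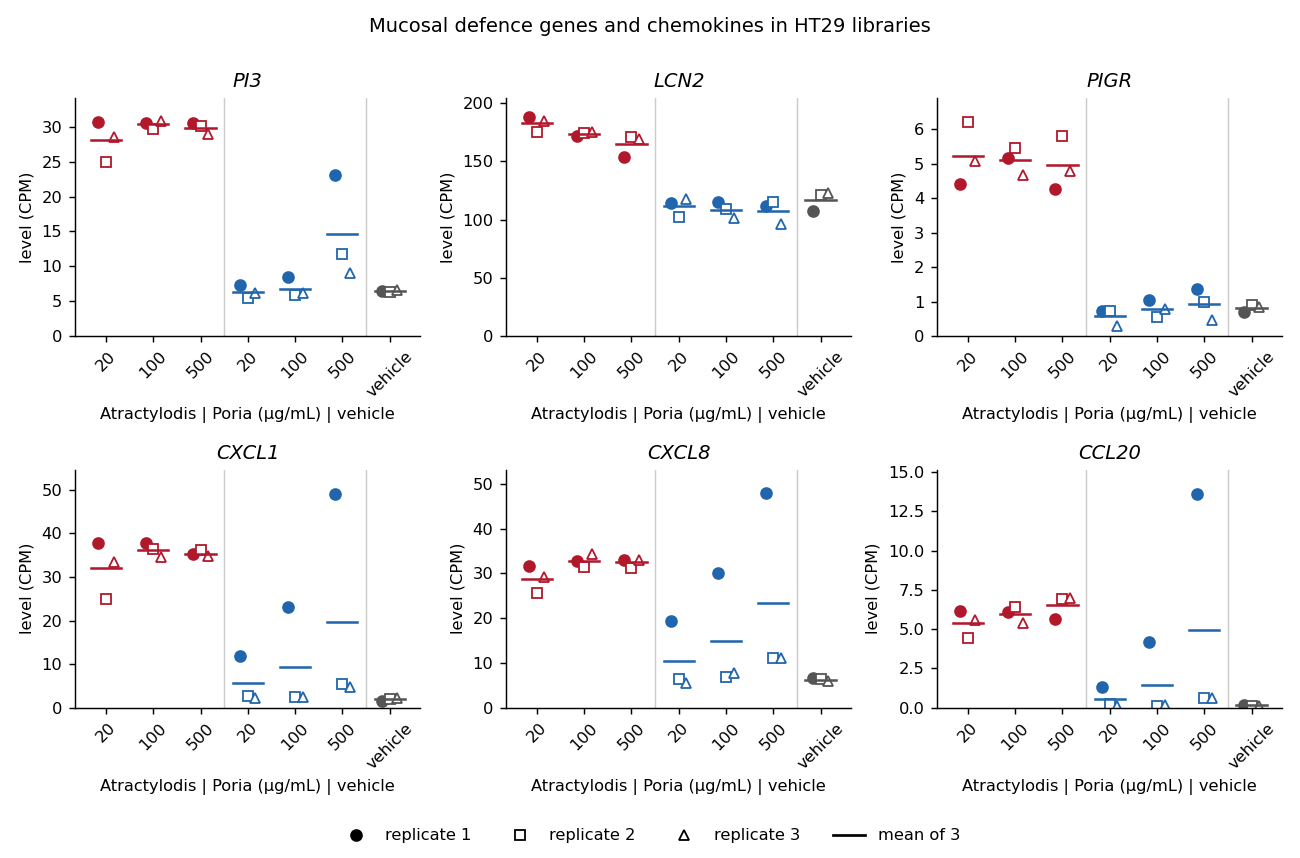
Level in CPM of 6 mucosal defence and chemokine genes at each dose in µg/mL, with Atractylodis (red) left of Poria (blue) and the vehicle (grey) last; each point is 1 library, its shape gives the replicate, and each line is the mean of 3. PI3, LCN2 and PIGR do not overlap between the extracts at any dose, and for CXCL1, CXCL8 and CCL20 Poria replicate 1 lies above Poria replicates 2 and 3.

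The chemokine genes CXCL1, CXCL2, CXCL3, CXCL8 and CCL20 were higher in every Atractylodis library than in Poria replicates 2 and 3, and Poria replicate 1 passed every Atractylodis library at 500 µg/mL. The neutrophil chemokine genes CXCL8, CXCL6, CXCL1, CXCL5, CXCL3 and CXCL2 lie near each other on chromosome 4, from position 73740506 to 74099293 (GRCh38, GENCODE 29). Of the 31 genes in the NF-kB and epithelial chemokine list, 24 were tested. With all 18 libraries 4 were higher over all doses, CXCL1, CXCL5, CXCL6 and IL32, and none was lower, where 0.585% of all genes were higher. CXCL5 had no counts in 6 of the 9 Poria libraries. It passed the filter on low counts through the Atractylodis libraries, so its call is a description. Without Poria replicate 1, 18 of the 24 were higher and none lower, and 2.24% of all genes were higher. Those 3 libraries were left out for their levels of these same genes. Counts, log2 fold changes and p-values of these genes without them, here and below, are therefore a description and support nothing. The single dose counts then were 9, 11 and 10 genes at 20, 100 and 500 µg/mL, against 0, 1 and 1 with all libraries in edgeR. At 20 µg/mL 8 of the 24 had an unadjusted p below 0.05 with all libraries, where 1243 of all 15719 genes did. DESeq2 called none of the 24 there. Over all genes tested, 0.176, 0.145 and 0.629% were higher at these doses without Poria replicate 1, against 0.0827, 0.0382 and 0.643% with all libraries. Without replicate 1 of both extracts 17 were higher over all doses.

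CXCL1, a ligand of the neutrophil receptor CXCR2, was at 37.7, 25.0 and 33.5 CPM with Atractylodis at 20 µg/mL, 37.9, 36.3 and 34.5 CPM at 100 µg/mL and 35.2, 36.1 and 34.7 CPM at 500 µg/mL. With Poria it was at 11.8, 2.58 and 2.28 CPM, 23.0, 2.5 and 2.52 CPM, and 49.1, 5.39 and 4.71 CPM, against 1.58, 1.93 and 2.25 CPM in the vehicle. Only the Poria replicate 1 library at 500 µg/mL lay above the Atractylodis libraries, and the other Poria libraries lay below all of them. With all libraries the log2 fold change was 1.67 ± 0.41 with an adjusted p of 0.0497 in edgeR, and this call was lost in 16 of the 18 fits that left out 1 library, with adjusted p up to 0.103. Without Poria replicate 1 the log2 fold change was 3.39 ± 0.13 and the adjusted p 1.36e-12. The promoter of CXCL1 printed above holds the NF-kB motif.

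CXCL8, interleukin 8, the best known neutrophil attractant, ran from 25.6 to 34.4 CPM with Atractylodis. In Poria libraries it was at 19.3, 6.39 and 5.53 CPM at 20 µg/mL, 30.2, 6.82 and 7.83 CPM at 100 µg/mL and 48.0, 11.1 and 11.2 CPM at 500 µg/mL, and the vehicle had 6.57, 6.33 and 5.88 CPM. Replicate 1 of Poria overlapped the Atractylodis range at 100 µg/mL and lay above it at 500 µg/mL, while replicates 2 and 3 lay below it at every dose. With all libraries the log2 fold change of 0.99 ± 0.29 did not pass, with an adjusted p of 0.112 in edgeR, and without Poria replicate 1 it was 1.96 ± 0.09 with an adjusted p of 2.24e-11.

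CCL20, which attracts cells carrying CCR6, differed widely between Poria replicates. It was at 1.33, 4.16 and 13.6 CPM in Poria replicate 1 at 20, 100 and 500 µg/mL, and at 0.0792 to 0.620 CPM in Poria replicates 2 and 3, while the Atractylodis libraries held 4.45 to 6.99 CPM. The log2 fold change was 1.5 ± 0.53 with all libraries, an adjusted p of 0.195, and 4.33 ± 0.21 without Poria replicate 1, an adjusted p of 4.33e-11, both in edgeR. CXCL2 and CXCL3, close relatives of CXCL1 whose reads can be confused with it, had log2 fold changes of 1.15 and 1.07 that did not pass, and 2.40 and 2.20 without Poria replicate 1, which did. CXCL5, at 0.451 to 1.35 CPM with Atractylodis, had no counts in 6 of the 9 Poria libraries. The other 3 were replicate 1 at each dose, at 0.0405, 0.0438 and 0.316 CPM. CXCL6, which shares sequence with CXCL5, ran from 2.92 to 4.55 CPM with Atractylodis and from 0.127 to 3.75 CPM with Poria, for a log2 fold change of 1.99 ± 0.33.

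Regulators of the pathway had smaller log2 fold changes than the chemokines. Without Poria replicate 1, TNFAIP3, which encodes the feedback inhibitor A20, was 0.58 log2 units higher with Atractylodis, and BIRC3, an apoptosis inhibitor induced by NF-kB, was 0.70 higher. The adhesion molecule ICAM1 was 0.90 higher and the NF-kB subunit gene RELB 0.30 higher, all 4 past the test. NFKBIA, which encodes the inhibitor IkBα, at 0.16, and the subunit NFKB1, at 0.07, did not pass. With all libraries none of these 6 passed. The libraries left out stood apart in genes of this same list, so a pass without them supports nothing.

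**Figure D2:**
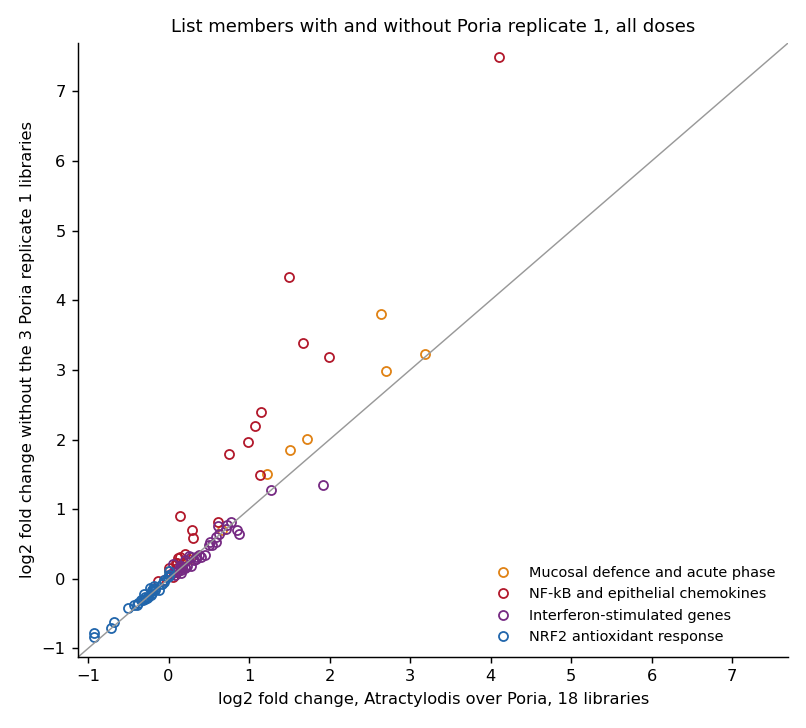
Log2 fold change over all doses, Atractylodis over Poria, of tested members of 4 lists with all 18 libraries (horizontal) and without the 3 Poria replicate 1 libraries (vertical); each point is 1 gene and the line marks equal values. Chemokine genes lie above the line, with CCL20 at 4.33 without and 1.5 with those libraries, while NRF2 genes lie along it.

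Interferon-stimulated genes were higher with Atractylodis than with Poria by small amounts, and the vehicle lay differently from gene to gene. Of 40 genes in the list 38 were tested, and 21 were higher over all doses and none lower, where 0.585% of all genes were higher. All 38 had a positive log2 fold change, with a median of 0.33 beside 0.002 over all genes tested. Leaving out each of the 18 libraries in turn kept 14 of the 21 every time. Without Poria replicate 1 there were 18, where 2.24% of all genes were higher. At single doses 1, 0 and 9 of the 38 passed at 20, 100 and 500 µg/mL, where 0.0827, 0.0382 and 0.643% of all genes were higher. The medians were 0.30, 0.22 and 0.37, and none of the 38 passed the interaction in edgeR or DESeq2. At 100 µg/mL 16 of the 38 had an unadjusted p below 0.05, where 653 of all 15719 genes did, and DESeq2 also called none. For the interaction 3 of the 38 had such a p, where 1261 of all genes did.

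IFIT1, which binds foreign RNA caps, was at 5.49, 6.21 and 6.70 CPM with Atractylodis at 20 µg/mL, 7.14, 5.53 and 6.47 CPM at 100 µg/mL and 5.5, 6.14 and 6.12 CPM at 500 µg/mL. With Poria it was at 4.33, 4.57 and 4.05 CPM, 4.25, 3.84 and 4.49 CPM, and 3.82, 3.36 and 3.97 CPM, against 4.31, 5.14 and 3.36 CPM in the vehicle. The extracts did not overlap, and the vehicle libraries lay across the Poria range and below the Atractylodis range. The log2 fold change was 0.59 ± 0.06 with an adjusted p of 1.76e-05 in edgeR.

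MX1, a GTPase that blocks influenza viruses, ran from 7.23 to 9.58 CPM with Atractylodis and from 4.42 to 7.99 CPM with Poria, where the 3 libraries at 500 µg/mL were at 4.49, 4.79 and 4.42 CPM. MX1 in the vehicle was at 6.62, 6.37 and 6.06 CPM, inside the Poria range and above the Poria libraries at 500 µg/mL. Its log2 fold change, Atractylodis over Poria, was 0.54 ± 0.08 over all doses, adjusted p 0.000939 in edgeR, and 0.85 ± 0.13 at 500 µg/mL. OAS1 and OAS2, which make the oligoadenylate signal that activates RNase L, were 0.34 ± 0.04 and 0.85 ± 0.14 log2 units higher. IFI27, whose promoter is printed above, ran from 11.4 to 17.3 CPM with Atractylodis and from 6.25 to 11.8 CPM with Poria, for a log2 fold change of 0.61 ± 0.10.

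The transcription factor gene IRF9 was at 10.7 to 15.6 CPM with Atractylodis and 7.38 to 12.5 CPM with Poria, and differed by 0.52 ± 0.07 log2 units with an adjusted p of 0.000135 in edgeR. The RNA sensor RIGI was 0.28 ± 0.05 higher, and SLFN5, of the interferon-inducible Schlafen family, 0.41 ± 0.04 higher. In the vehicle IRF9 was at 10.2 to 11.7 CPM, which overlapped both extracts. RIGI was at 13.6, 14.4 and 11.9 CPM there, inside the Atractylodis range of 11.9 to 14.8 CPM, with Poria at 10.2 to 13 CPM. SLFN5 in the vehicle, at 28.2 to 29.6 CPM, lay inside the Poria range. SLFN5 ran from 35.4 to 41.7 CPM with Atractylodis and from 25.7 to 32.1 CPM with Poria, did not overlap between the extracts, and was called at 20 and 500 µg/mL. Genes whose extracts were apart in 1 direction at each of the 3 doses were 0.42% of those tested, and at single doses such genes were 12.1, 11.9 and 16.4% at 20, 100 and 500 µg/mL.

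NRF2 target genes were lower with Atractylodis than with Poria, and by more at the highest dose. Of 32 genes in the NRF2 list 31 were tested. At 500 µg/mL 25 were lower and none higher, where 1.01% of all genes were lower, and the median log2 fold change was -0.48 beside 0.004 over all genes. At 20 and 100 µg/mL 1 and 3 were lower, with medians of -0.07 and -0.17, where 0.0318 and 0.0254% of all genes were lower. The interaction passed for 14 of the 31, all with a more negative difference at 500 than at 20 µg/mL, where 0.178% of all genes were called downward. Leaving out each library at 20 or 500 µg/mL in turn kept 22 of the 25 and 9 of the 14 every time. Without Poria replicate 1 the counts were 25 at 500 µg/mL, where 0.754% of all genes were lower, and 11 for the interaction, where 0.113% were.

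AKR1B10, an aldo-keto reductase and a sensitive NRF2 target in human cells, was at 92.9, 94.8 and 93.6 CPM with Atractylodis at 20 µg/mL, 103, 95.9 and 92.9 CPM at 100 µg/mL and 111, 101 and 103 CPM at 500 µg/mL. With Poria it was at 121, 120 and 110 CPM, 150, 137 and 131 CPM, and 274, 246 and 261 CPM. The vehicle had 102, 94.1 and 93.1 CPM. Poria libraries were higher at each dose in turn, and Atractylodis libraries stayed between 92.9 and 111 CPM. The log2 fold changes were -0.32 ± 0.06, -0.52 ± 0.06 and -1.31 ± 0.06 at 20, 100 and 500 µg/mL, the last with an adjusted p of 2.10e-11 in edgeR, and the interaction was -0.99 ± 0.08 with an adjusted p of 1.59e-06. The call at 20 µg/mL was lost in 5 of the 6 fits without 1 of the libraries of that dose. As a side value from the fit of all 60 libraries, Poria at 500 µg/mL stood 1.43 ± 0.05 log2 units above the vehicle and Atractylodis 0.12 ± 0.05, the first past the test and the second not.

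ALDH3A1, an aldehyde dehydrogenase counted in the aryl hydrocarbon receptor list and not in the NRF2 list, was at 29.7, 29.8 and 27.8 CPM with Atractylodis at 500 µg/mL, against 59.6, 61.2 and 54.6 CPM with Poria at that dose and 27.9 to 29.3 CPM in the vehicle. Its log2 fold change was -1 ± 0.05 at 500 µg/mL with an adjusted p of 7.11e-10 in edgeR, and -0.42 ± 0.06 at 100 µg/mL. AKR1C2, a reductase of steroids and aldehydes, was at 15.6, 12 and 11.8 CPM with Atractylodis and at 42.5, 36.4 and 37.3 CPM with Poria at 500 µg/mL and its log2 fold change was -1.56 ± 0.11. AKR1C1 and AKR1C3 gave -1.23 ± 0.09 and -0.93 ± 0.10. These 3 genes are near-identical copies, and reads may be split among them.

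NQO1, the quinone reductase, was at 520, 502 and 503 CPM with Atractylodis and at 767, 695 and 721 CPM with Poria at 500 µg/mL, a log2 fold change of -0.51 ± 0.05 with an adjusted p of 1.70e-06 in edgeR. For glutathione supply, GCLM, the modifier subunit of the first enzyme of glutathione synthesis, was -0.69 ± 0.06 and its catalytic partner GCLC -0.57 ± 0.10. SLC7A11, the cystine importer, was at 166, 134 and 153 CPM with Atractylodis and at 252, 245 and 274 CPM with Poria, a log2 fold change of -0.77 ± 0.07. HMOX1, heme oxygenase 1, was -0.77 ± 0.09, and the ferritin chains FTH1 and FTL were -0.44 ± 0.05 and -0.40 ± 0.07. Both ferritin genes have many processed copies, so their counts are uncertain.

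Members of the NRF2 list that supply NADPH were among the lower genes. ME1, malic enzyme, was at 102, 97.5 and 99.4 CPM with Atractylodis and at 140, 141 and 143 CPM with Poria at 500 µg/mL, and its log2 fold changes at 20, 100 and 500 µg/mL were -0.06 ± 0.04, -0.22 ± 0.04 and -0.50 ± 0.04. The last was called in every fit that left out 1 library of its dose. PGD and TKT, of the pentose phosphate pathway, were -0.26 ± 0.04 and -0.40 ± 0.04 at 500 µg/mL and both passed. TXNRD1, thioredoxin reductase, at -0.51 ± 0.10, passed with all libraries and not without Atractylodis replicate 2 (-0.46), Atractylodis replicate 3 (-0.44) or Poria replicate 1 (-0.40) of that dose. Export pumps were also lower, with ABCC2 at -1.33 ± 0.21, ABCG1 at -0.87 ± 0.13 and ABCG2 at -0.33 ± 0.05, 3 of the 9 tested genes of the ABC transporter list in edgeR, where 1.01% of all genes were lower at 500 µg/mL. DESeq2 called 4 of the 9.

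**Figure D3:**
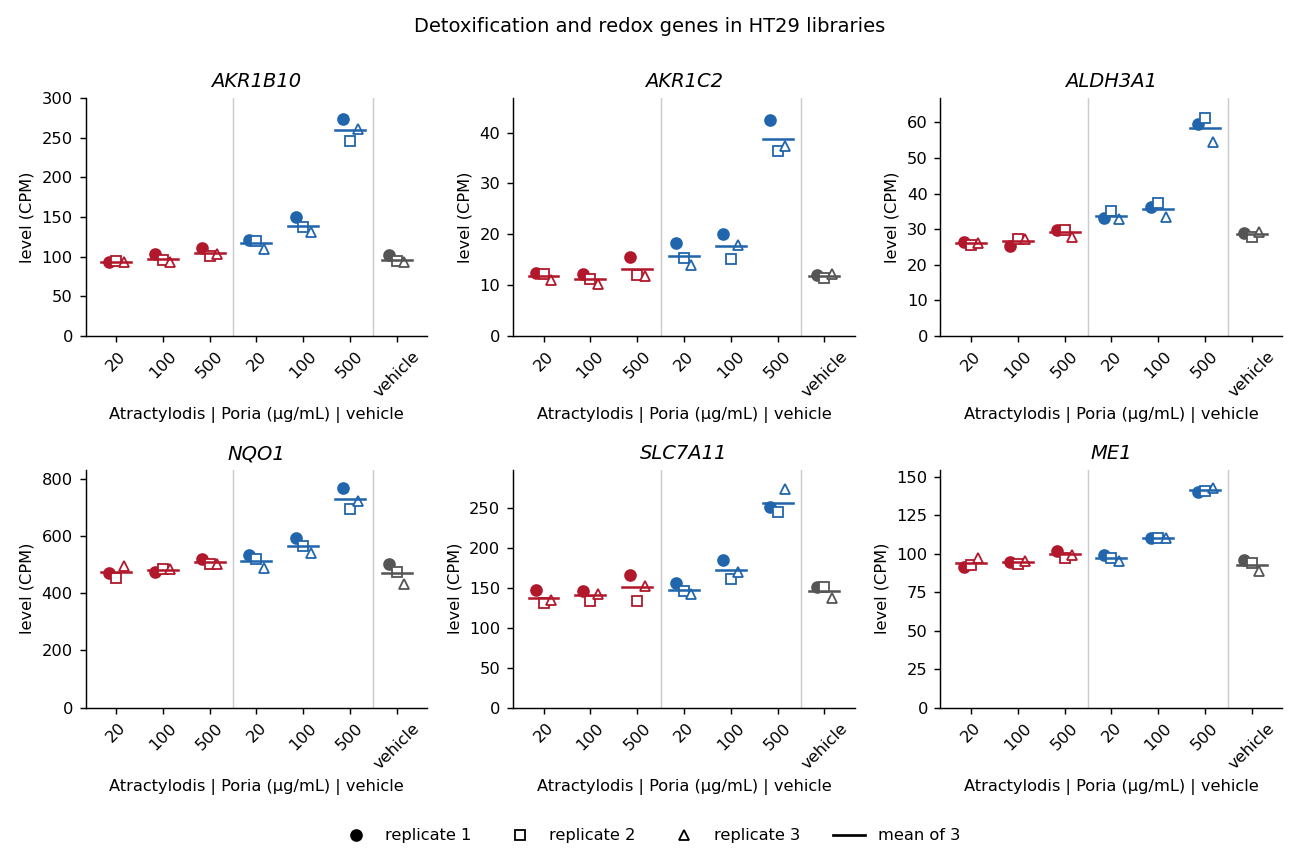
Level in CPM of 6 genes of the NRF2 and aryl hydrocarbon receptor lists at each dose in µg/mL, with Atractylodis (red) left of Poria (blue) and the vehicle (grey) last; each point is 1 library, its shape gives the replicate, and each line is the mean of 3. AKR1B10 is at 101 to 111 CPM with Atractylodis and 246 to 274 CPM with Poria at 500 µg/mL, and the gap is smaller at the lower doses.

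Aryl hydrocarbon receptor targets were also lower with Atractylodis. Of 12 genes in the list 10 were tested, and 7 were lower over all doses and none higher, where 0.636% of all genes were lower. NQO1 belongs to both this list and the NRF2 list. CYP1A1, the receptor's classic target, was at 0.340 to 0.945 CPM with Atractylodis and 0.688 to 1.36 CPM with Poria, a log2 fold change of -0.82 ± 0.15 with an adjusted p of 0.00505 in edgeR. The vehicle libraries had 4.87, 0.822 and 0.619 CPM, so vehicle replicate 1 stood apart and no side value is drawn from it. CYP1B1 was -0.22 ± 0.03 and the receptor's repressor TIPARP -0.20 ± 0.03. CYP1A1, CYP1B1 and TIPARP stayed called without any 1 library, and none of the 3 passed the interaction. In edgeR 3 others of the 10 did, each with a more negative difference at 500 than at 20 µg/mL, where 0.178% of all genes were called downward, and DESeq2 called 4. These were ALDH3A1, described above, with a difference of -0.63 ± 0.08 and an adjusted p of 0.000599 in edgeR, NQO1 with -0.39 ± 0.06, and the glucuronosyltransferase UGT1A6 with -0.62 ± 0.08. UGT1A6 overlaps the other UGT1A genes, so its counts are uncertain.

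**Figure D4:**
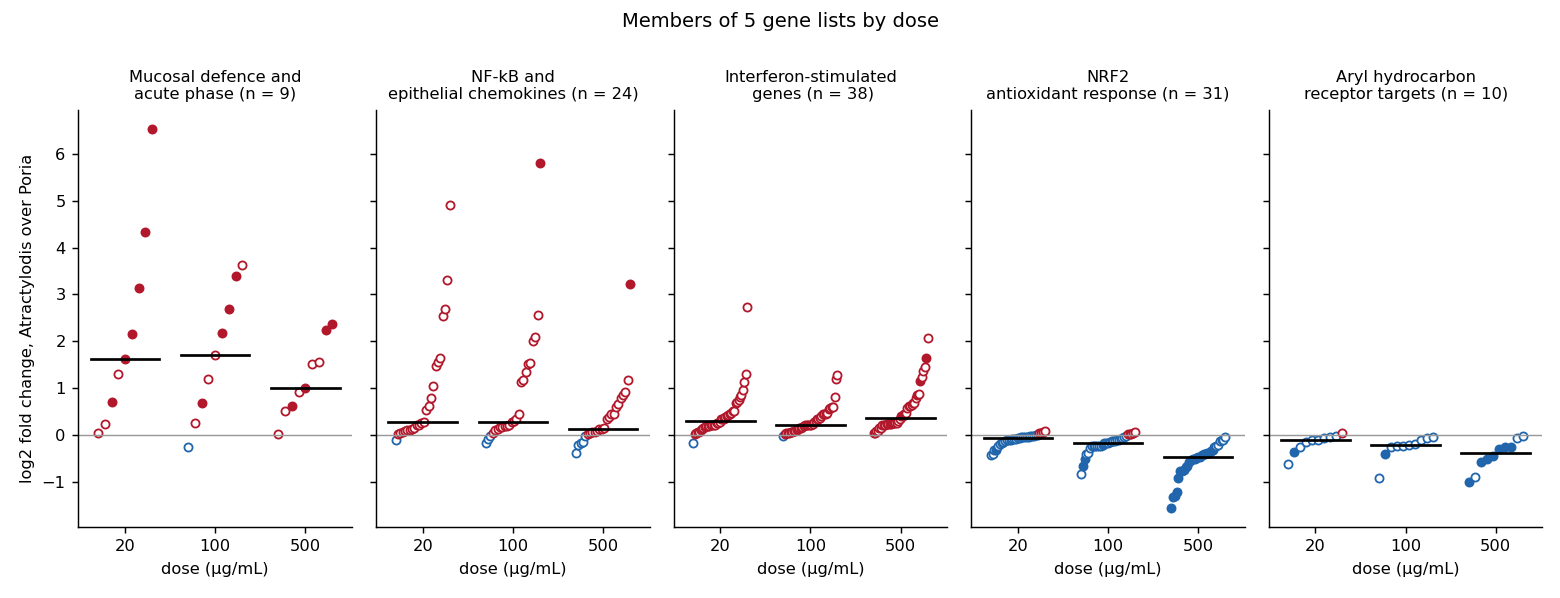
Log2 fold change, Atractylodis over Poria, of the tested genes of 5 lists at 20, 100 and 500 µg/mL; each point is 1 gene in order of value, filled where it passed the test, red above 0 and blue below, and the line is the median. The NRF2 median is -0.48 at 500 µg/mL, the interferon median lies between 0.22 and 0.37, and the mucosal defence median between 1.01 and 1.7.

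At 500 µg/mL further genes differed that did not pass at the lower doses. TXNIP, a thioredoxin-binding protein that limits glucose uptake, was at 51.0, 47.5 and 49.9 CPM with Atractylodis and at 37.9, 34.7 and 33.2 CPM with Poria, against 50 to 51.7 CPM in the vehicle. At 20 and 100 µg/mL the extracts overlapped for this gene. The log2 fold change at 500 µg/mL was 0.49 ± 0.05 with an adjusted p of 1.85e-05 in edgeR, and the interaction was 0.48 with an adjusted p of 0.00453. BTG2, an antiproliferative gene of the p53 list, was at 36.9, 41.4 and 38.7 CPM with Atractylodis and at 28.2, 29.3 and 27.5 CPM with Poria, for 0.46 ± 0.06 at this dose and an interaction of 0.62, adjusted p 0.00235.

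CD200, a surface glycoprotein that restrains myeloid cells, was at 7.80, 8.50 and 8.20 CPM with Atractylodis and at 4.70, 6.00 and 3.80 CPM with Poria, for 0.76 ± 0.12 and an adjusted p of 0.00109 in edgeR. SELENBP1, a methanethiol oxidase of differentiated colon epithelium, was at 21.6, 22.3 and 22.0 CPM with Atractylodis and at 13.4, 14.0 and 12.6 CPM with Poria, for 0.72 ± 0.08 and an adjusted p of 1.85e-05. In both genes the Poria libraries at 500 µg/mL lay below those of every other dose and of the vehicle, and Atractylodis libraries at that dose did not.

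NOX1, the catalytic subunit of the colon's NADPH oxidase, was at 12.6, 16.1 and 17.1 CPM with Atractylodis and at 9.12, 10.5 and 10.3 CPM with Poria at 500 µg/mL. Its log2 fold change of 0.63 ± 0.12 passed, and without Atractylodis replicate 3 of that dose it was 0.54 with an adjusted p of 0.0761 in edgeR.

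Markers of goblet cells, the mucus-secreting cells of the gut, showed 4 genes higher and none lower of 21 tested at 500 µg/mL. At that dose 0.643% of all genes were higher. Over all doses none of the 21 passed in edgeR, and DESeq2 called 1. An unadjusted p below 0.05 over all doses was found for 5 of the 21 and for 2176 of all 15719 genes. The 4 were CREB3L1, a transcription factor of secretory cells, at 0.34 ± 0.06, REG4, a secreted lectin, at 0.34 ± 0.07, SYTL2, of vesicle docking, at 0.31 ± 0.06, and FCGBP, a mucus component, at 0.52 ± 0.13. When each library of that dose was left out in turn, 1 of the 4, CREB3L1, stayed called every time. REG4 had 26.7, 29.6 and 28.3 CPM with Atractylodis and 20.8, 24.4 and 22.1 CPM with Poria. Its call was lost without either Atractylodis replicate 2 or 3 or Poria replicate 1 or 3 of that dose. The vehicle libraries had 33.3, 35.5 and 38.5 CPM of REG4, above both extracts at that dose. CREB3L1 (194 to 223 CPM) and SYTL2 (57.4 to 60.1 CPM) were also higher in the vehicle than with either extract there. FCGBP, at 15.4 to 17.8 CPM in the vehicle, overlapped Atractylodis and lay above Poria at that dose. The gel-forming mucin MUC2 was at 15.6, 19.2 and 18.4 CPM with Atractylodis and 15.3, 13.8 and 15.8 CPM with Poria, and its log2 fold change of 0.25 ± 0.09 did not pass.

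**Figure D5:**
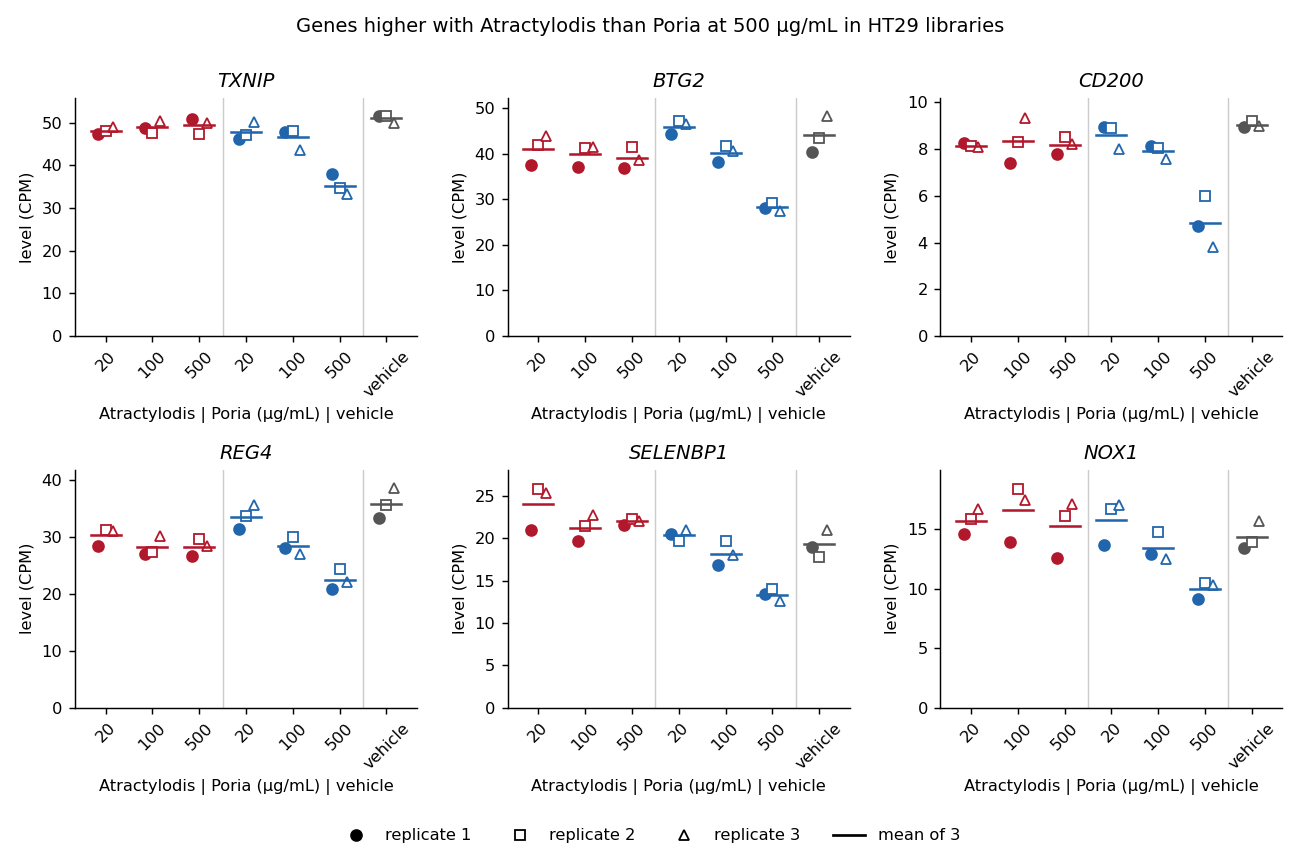
Level in CPM of 6 genes at each dose in µg/mL, with Atractylodis (red) left of Poria (blue) and the vehicle (grey) last; each point is 1 library, its shape gives the replicate, and each line is the mean of 3. TXNIP is at 47.5 to 51 CPM with Atractylodis and 33.2 to 37.9 CPM with Poria at 500 µg/mL, and the libraries overlap at 20 and 100 µg/mL.

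Smaller differences at 500 µg/mL touched growth and lipid genes. At that dose 0.643% of all genes were higher and 1.01% lower in edgeR. Of the 26 FOXO targets tested, SESN1, KLHL24 and TXNIP were higher and none lower. Of 11 fatty acid synthesis genes, ME1, SCD and FASN were lower, the desaturase SCD by -0.25 ± 0.04 and the synthase FASN by -0.18 ± 0.04. ME1 also belongs to the NRF2 list. The call of FASN was lost in each of the 6 fits without 1 library of that dose. Of 25 ATF4 target genes of the amino acid response, SLC7A11, the leucine importer SLC7A5 (-0.26 ± 0.05) and the pseudokinase TRIB3 (-0.26 ± 0.05) were lower. SLC7A11 also belongs to the NRF2 list and SLC7A5 to the aryl hydrocarbon receptor list. Of 22 p53-type stress targets 3 were higher and 1 lower, and of 18 heat shock and chaperonin genes 3 were lower. Leaving out each library of that dose in turn kept 2 of the 3 FOXO targets, 2 of the 3 fatty acid genes, 2 of the 3 ATF4 genes, 1 of the 4 p53-type genes and 0 of the 3 heat shock genes every time. The ATF4 genes kept were SLC7A11 and SLC7A5, those shared with other lists. Over all doses no gene passed in the lists of mitosis (28 tested), DNA replication (32), ribosome biogenesis (25), the unfolded protein response (19), mitochondrially encoded genes (13), Wnt targets (15) or metallothioneins (8) in edgeR, where 1.22% of all genes passed. Of these 140 genes 18 had an unadjusted p below 0.05, where 2176 of all 15719 genes did. DESeq2 called 1 of the 140, a Wnt target. At 500 µg/mL 1 mitosis gene, UBE2C, and 1 replication gene, CDC6, were lower in edgeR. The call of UBE2C was lost in each of the 6 fits without 1 library of that dose, with adjusted p-values up to 0.162, and CDC6 was called in 4 of the 6.

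A part of the calls at the lower doses was found at 500 µg/mL as well. Of the 13 genes higher at 20 µg/mL, 7 were higher at 500 µg/mL, which is 53.8% of the first list and 6.93% of the 101 in the second. Of the 5 genes lower at 20 µg/mL, 2 (40%) were lower at 500 µg/mL. At 100 µg/mL 4 of the 6 higher genes (66.7%) were also higher at 500 µg/mL. All 4 genes lower at 100 µg/mL were lower at 500 µg/mL, 2.53% of the 158. Over all genes tested, 0.643% were higher and 1.01% lower at 500 µg/mL. The 101 genes higher at 500 µg/mL had median log2 fold changes of 0.02, 0.08 and 0.36 at 20, 100 and 500 µg/mL, and the 158 lower genes had -0.07, -0.07 and -0.3. The genes were chosen at 500 µg/mL, so the last value of each is a description.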

How the data were processed

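RNA of HT29 cells was sequenced in 60 libraries, of which the 9 Atractylodis and 9 Poria libraries were compared here and the 3 vehicle libraries gave side values. Per the labels' protocols, 1 µg of total RNA with an integrity number above 7 went into a directional MGI library read as 100 bp pairs. Per the submitters' processing notes, the tools were FastQC 0.11.9, Trim Galore 0.6.5, STAR 2.7.3a and RSEM 1.3.3 on hg38. No annotation release or strand setting was found (not given in the sources used here), so overlapping antisense genes cannot be told apart. The authors deposited RSEM expected counts for 60675 genes, per the file headers and the submitters' processing notes, of which 24.2% of the non-zero ones carried decimals, and they were rounded. The table holds 273 columns of values, of which 60 were used and 213 were not. Reads without molecular identifiers are not independent molecules.

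Genes were kept by edgeR 4.0.16 filterByExpr (minimum count 10, minimum total 15), which left 15719, and scaled by TMM in R 4.3.3. The quasi-likelihood test was fitted with dose and extract as terms over 18 libraries (14 residual degrees of freedom). Single doses and the difference between 500 and 20 µg/mL came from 6 group means (12 degrees of freedom), with Benjamini-Hochberg adjustment over all genes tested and a threshold of 0.05. CPM and vehicle side values came from all 60 libraries in 21 groups. On simulated counts the same code was tested first. No 2 libraries agreed within counting noise. Genes were named by rule. These were the 12 largest changes each way over all doses and at 500 µg/mL and the 6 largest at 20 and 100 µg/mL. All had a mean of at least 5 CPM and no overlap. The 6 largest for the interaction needed the same mean, and overlap was allowed. Called list members and 20 further genes of these lists and programmes were added. Other list members that did not pass with all 18 libraries, such as TNFAIP3, BIRC3, ICAM1, RELB, NFKBIA, NFKB1, SLPI and DEFB1, were named after their values were seen. The comparison, the 34 gene lists and the named genes were chosen with earlier results of these data known. DESeq2 1.42.0, other filters, scalings, sample sets and a replicate block were tried as alternatives. Floors of 3 counts cover counting error only.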

Additional observations from a re-analysis of the deposited data

Results flagged for a closer look

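The values here are differences of log2 fold changes, Atractylodis over Poria at 500 µg/mL minus the same at 20 µg/mL. They are given for those of the 6 largest interactions each way and of the 20 further genes that passed the interaction in edgeR. Other named genes, such as UGT1A6, ME1, TKT and SCD, also passed it and are not listed here. The difference between extracts was more negative at 500 µg/mL for AKR1C2 (-1.15), AKR1B10 (-0.99), AKR1C1 (-0.91), AKR1C3 (-0.79), OSGIN1 (-0.73), SLC7A11 (-0.66), ALDH3A1 (-0.63) and NQO1 (-0.39). It was more positive for TXNIP (0.48), REG4 (0.49), ATP6V1B1 (0.51), KLHL24 (0.56), BTG2 (0.62), AQP1 (0.66) and CD200 (0.85). AQP1, a water channel, averaged 7.74 ± 0.148 CPM with Atractylodis and 11.1 ± 0.627 CPM with Poria at 20 µg/mL, and 8.01 ± 0.458 against 7.31 ± 0.472 CPM at 500 µg/mL (SD, n = 3 each). Leaving out each of the 12 libraries in turn kept the call every time for 9 of the 15 genes. Of the others, AQP1 kept it 10 times, AKR1C3 6 times, KLHL24 5 times, and ATP6V1B1, CD200 and REG4 3 times each.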

How the results depend on the processing

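RLE size factors and library totals left the 5 counts of called genes within 1.5 times those reported. The other alternatives gave more or fewer calls, and the cause was not tested unless the number of genes or samples changed by construction. In the order all doses, 20, 100 and 500 µg/mL and the interaction, the counts with no filter on low values were 706, 309, 102, 587 and 236. A filter at a mean of 5 CPM left 5 genes at 100 µg/mL. DESeq2 called 308, 33 and 16 genes over all doses and at 20 and 100 µg/mL and 82 for the interaction. All 60 libraries in one fit gave 28 genes at 20 µg/mL and 19 at 100 µg/mL. Only the 20 and 100 µg/mL libraries gave 50 genes over both doses, and only the 6 libraries at 500 µg/mL gave 104. Without Poria replicate 1 the counts that moved were 609 over all doses, 38 and 26 at 20 and 100 µg/mL and 27 for the interaction. Without replicate 1 of both extracts they were 831, 316 and 32 over all doses and at 20 and 100 µg/mL.

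Leaving out 1 library at a time gave 113 to 331 genes over all doses, 5 to 25 at 20 µg/mL, 7 to 11 at 100 µg/mL, 130 to 213 at 500 µg/mL and 20 to 41 for the interaction. Over all doses the count moved by more than 1.5 times without Atractylodis replicate 1 or 3 at 20 µg/mL (331 and 127), Atractylodis replicate 3 at 100 µg/mL (122), Atractylodis replicate 2 or 3 at 500 µg/mL (117 and 113) and Poria replicate 2 or 3 at 500 µg/mL (114 each). At 500 µg/mL it did so without Atractylodis replicate 2 or 3 (158 and 130) or Poria replicate 2 (153). At 20 µg/mL it did so without Atractylodis replicate 2 or 3 (8 and 9) or Poria replicate 1, 2 or 3 (9, 5 and 9). For the interaction it did so without Atractylodis replicate 3 at 20 µg/mL (27), Atractylodis replicate 2 or 3 at 500 µg/mL (27 and 20), or Poria replicate 2 or 3 at 20 µg/mL (21 and 31). Of the values of single named genes under the alternatives, 4249 kept direction and side of the threshold, 736 lost the call, 53 gained it and 3 changed sign. The sign changes were in genes that did not pass at 500 µg/mL, CCL20, with log2 fold changes from -0.17 to 3.41 and -0.16 without Poria replicate 2, and CXCL3, from -0.04 to 2.12.

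Replicate numbers were not treated as pairs in the fits reported, and whether they mark shared handling was not tested. Residuals of same-numbered libraries of the 2 extracts correlated at -0.0285 to 0.196, above 0.1 in 2 of 9 pairs, and 6 of 9 Atractylodis libraries correlated best with their own number. With the replicate number as a block the counts were 345, 36, 22, 524 and 127, against 192, 18, 10, 259 and 48 without it.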
